A study of Mus musculus with 13 samples.

Results

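The young adult brain was set against the early postnatal brain in cells sorted to enrich oligodendrocyte precursor cells (OPCs). The members are the 6 libraries whose titles give the ages P80 and P12, 3 of each, of 13 libraries in the series. The study sequenced total RNA in bulk from cells that magnetic beads against PDGFRα had pulled from the whole brain of wild-type C57BL/6 mice. The remaining libraries come from embryonic day 16 (E16, 3 libraries) and from older adults (P310, 4 libraries), and serve here for the shared estimate of spread and as levels beside the members. The labels name no genotype, transgene or drug that distinguishes the groups. The age field gives 12 days for the P12 libraries and 80, 81 and 81 days for the P80 libraries. Myelin was removed with a second set of beads from the P80 brains and not from the P12 brains, so age and this step cannot be told apart. PDGFRα beads also bind other cells that carry the receptor, and a magnetic sort leaves a mixed fraction. The labels number the libraries as mice 1 to 3 of each age but do not say how the animals were related, and the p-values below measure the spread between these samples.

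OPCs are dividing glial cells that carry Pdgfra and the proteoglycan Cspg4, and that give rise to the myelinating oligodendrocytes. In the mouse brain most myelin is laid down in the first postnatal weeks, when precursors divide quickly and brain vessels are still growing. In the adult, precursors persist but divide slowly, and the vessels are mature.

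P12 replicates 2 and 3 were near copies. Over 16120 genes their chi-square divided by its degrees of freedom was 2.34, where 1 is counting noise alone, and the other 14 pairs of libraries of 1 age gave 16.6 to 179. Their counts were summed and counted as 1 sample, named P12 replicate 2-3, which leaves 2 samples at P12 and 3 at P80. The P12 libraries held 14613236, 17590193 and 25810455 gene counts and the P80 libraries 13565319, 8809017 and 14104843. Transcripts of the mitochondrial genome took 4.44% to 10.8% of the counts in the P12 libraries and 12.8% to 23.5% in the P80 libraries, with no overlap. Sex-linked transcripts also went with age: Ddx3y and Eif2s3y, on the Y chromosome, had counts in every P12 library and none in any P80 library. Xist, from the inactive X, was at 294 CPM in P12 replicate 1, 1.21 CPM in P12 replicate 2-3 and 586, 650 and 809 CPM at P80. P12 replicate 1 thus held both Xist and Y-linked transcripts, P12 replicate 2-3 held Y-linked transcripts with little Xist, and the P80 libraries held Xist alone. The labels do not give the animals' sex, and its part in the results below was not tested.

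The sort was checked against its markers, with levels as CPM, which are counts relative to library size after scaling by the trimmed mean of M values (TMM). Pdgfra, the receptor that was sorted on, was at 46.7 CPM in P12 replicate 1 and 93.6 CPM in P12 replicate 2-3, and at 40.8, 17.2 and 53.4 CPM at P80. Cspg4 (NG2) was at 54.2 and 64.9 CPM at P12 and at 59.1, 80.8 and 116 CPM at P80. Both surface markers of precursors were measured in every sample, and for both the ages overlapped. Other cells can carry them too, and Pdgfra is also in the list of fibroblast markers used below, so their levels do not measure precursors alone. Per kilobase of exon, Pdgfra stood at 1.71 to 9.34 CPM over the 5 samples, while the endothelial genes Cldn5 and Pecam1 stood at 263 to 501 and 66.8 to 98.1 CPM per kilobase. All 16 endothelial markers of a fixed list had counts in all 5 samples, and their summed level was 9462 and 8562 CPM at P12 and 10700, 11110 and 8906 CPM at P80. The libraries therefore hold much vessel RNA at both ages. In such bulk samples, fewer cells of a type and less RNA per cell cannot be told apart.

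Of 21170 genes tested, 301 (1.42%) passed edgeR's quasi-likelihood test at a Benjamini-Hochberg adjusted p under 0.05, and are here called changed. Fewer rose than fell with age: 86 genes (0.406%) were higher and 215 (1.02%) lower at P80. Of the called genes 272 are protein-coding, 80 of them higher and 192 lower. In all 301 the samples of the 2 ages did not overlap. The calls rest on the same values, so this is no further support for them. Over all genes tested, 26.6% did not overlap. The median log2 change over all genes was -0.03. Single libraries weighed on the counts: without P12 replicate 1, 15 genes were called higher and 56 lower. Without P80 replicate 1 the counts were 50 and 141, without P80 replicate 3 they were 49 and 102, and without P12 replicate 2-3 they were 46 and 168. Leaving out P310 replicate 2, an older library whose summed myelin genes reached 68820 CPM, raised them to 146 and 300.

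**Figure D1:**
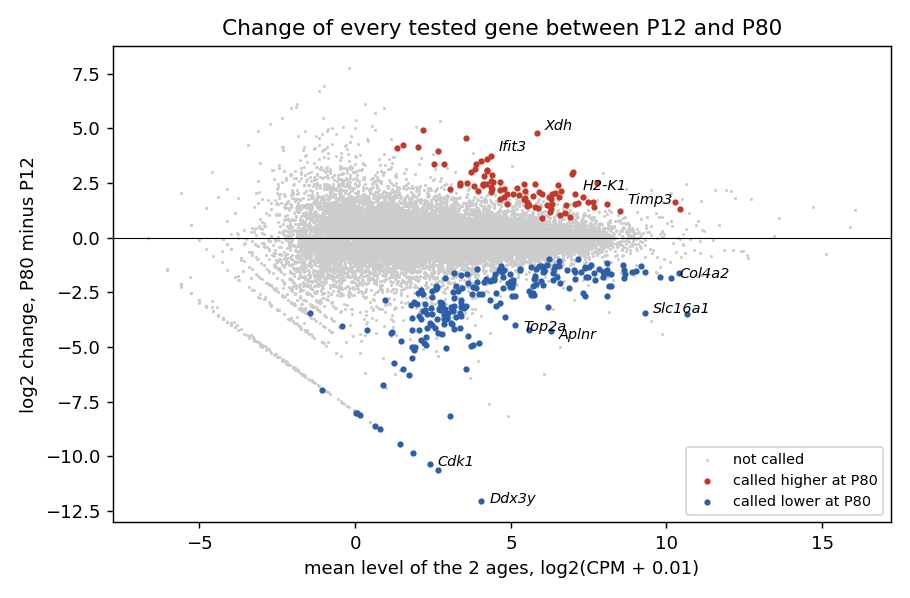
Log2 change from P12 to P80 (vertical axis) against the mean level of both ages as log2(CPM + 0.01) (horizontal axis) for the 21170 genes tested. Red and blue points are the 86 genes called higher and the 215 called lower at P80, and the blue points on the straight lower edge, Cdk1 and Ddx3y among them, had few or no counts at P80.

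Genes of cell division were lower in the young adult. Spindle and kinetochore genes are transcribed late in the cell cycle, and the clustered histone genes during DNA synthesis. All 30 measured members of a list of mitosis and kinetochore genes had negative log2 changes, with a median of -3.52, and 15 of them were called lower (background 1.02%). In 29 of the 30 every P12 sample lay above every P80 sample, against 15.5% of all genes. The summed level of the list was 723 and 616 CPM at P12 and 84.8, 54.2 and 67.7 CPM at P80. When P12 replicate 1 was left out, 6 members were called, and 8 were called with only P12 and P80 in the fit. DESeq2 called 23, limma-voom 24 and the edgeR fit without a low-count filter 27.

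The promoters of 3 called division genes are shown because this class is known for 2 short elements near its start sites, the CCAAT box and the cell cycle genes homology region (CHR). Capitals mark CCAAT and TTTGAA on either strand, the second being a core form of the CHR, and the letters of the 2 do not overlap. The stretches of 300 bases lie mostly before each start and are taken from RefSeq on GRCm38.p6, all on the minus strand: Top2a at chr11:99024140-99024439, Bub1 at chr2:127831810-127832109 and Cdk1 at chr10:69352863-69353162.
Top2a: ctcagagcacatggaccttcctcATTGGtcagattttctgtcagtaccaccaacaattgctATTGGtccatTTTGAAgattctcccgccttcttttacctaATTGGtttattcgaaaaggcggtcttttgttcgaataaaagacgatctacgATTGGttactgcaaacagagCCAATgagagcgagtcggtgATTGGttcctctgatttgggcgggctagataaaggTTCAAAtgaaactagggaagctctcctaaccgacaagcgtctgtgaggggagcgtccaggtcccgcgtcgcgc
Bub1: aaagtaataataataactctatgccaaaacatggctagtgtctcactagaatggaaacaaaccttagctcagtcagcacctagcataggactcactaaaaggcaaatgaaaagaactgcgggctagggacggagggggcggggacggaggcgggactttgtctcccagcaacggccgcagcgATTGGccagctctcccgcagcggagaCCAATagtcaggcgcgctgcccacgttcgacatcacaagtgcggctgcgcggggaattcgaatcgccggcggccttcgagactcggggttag
Cdk1: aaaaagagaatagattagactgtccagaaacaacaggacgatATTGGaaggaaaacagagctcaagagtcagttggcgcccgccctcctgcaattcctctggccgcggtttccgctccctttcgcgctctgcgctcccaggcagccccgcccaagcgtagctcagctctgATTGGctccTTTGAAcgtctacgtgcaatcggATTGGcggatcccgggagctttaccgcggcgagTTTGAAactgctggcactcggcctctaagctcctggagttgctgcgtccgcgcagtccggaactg
Promoters were matched for 25 of the 30 list members, and 20 of them (80%) held CCAAT and 19 (76%) TTTGAA, against 37.4% and 17.9% of the 32851 promoters in the table. Among 12 matched members that were called lower, 10 held CCAAT and 9 TTTGAA. The Bub1 window holds CCAAT on both strands and no TTTGAA. Other forms of the CHR were not searched, so the window does not show that Bub1 lacks the element. A match of letters is a description of the window and not evidence of binding.

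Top2a (ENSMUSG00000020914, chr11:98992943-99024189), the topoisomerase that untangles chromosomes, was at 68.6 and 64.8 CPM at P12 and at 5.51, 5.06 and 1.95 CPM at P80. Both early postnatal samples were far above all adult ones, and the log2 change was -4.004 ± 0.39 (SE; adjusted p = 0.0001889, edgeR). Cdk1 (ENSMUSG00000019942), the kinase that drives entry into mitosis, was at 12.9 and 8.02 CPM at P12 and had no count in any P80 library. Against 3 counts over the P80 group it was at least 133-fold lower in the adult (adjusted p = 0.006431, edgeR). The same held for Bub1, a kinase of the spindle checkpoint, with 6.66 and 4.26 CPM at P12 and none at P80, at least 69.6-fold lower (adjusted p = 0.002528, edgeR). Aurkb, the kinase of the chromosomal passenger complex, was at 8.58 and 6.00 CPM and then at 0, at least 93.0-fold lower. Its partner Birc5 (survivin) went from 8.65 and 5.64 CPM to 0.38, 0 and 0.14 CPM, and its call ended with only P12 and P80 in the fit (adjusted p = 0.0664, edgeR).

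Other parts of the mitotic machinery moved in the same direction. The spindle assembly factor Tpx2 was at 34.5 and 26.3 CPM at P12 and at 1.96, 0 and 0.97 CPM at P80 (log2 change -4.82 ± 0.71, adjusted p = 0.004829, edgeR). With only P12 and P80 in the fit the adjusted p of Tpx2 was 0.0649. Cenpf, a large kinetochore protein, was at 54.8 and 50.1 CPM and then at 5.83, 0.62 and 5.84 CPM. Of the cyclins that act late in the cycle, Ccna2 went from 27.4 and 21.3 CPM to 6.34, 7.53 and 1.25 CPM and Ccnb1 from 12.6 and 6.19 CPM to 0, 0 and 0.83 CPM. Racgap1, which acts in cytokinesis, changed least among the 15 called members, with a log2 change of -1.45. Mki67, the usual marker of cycling cells, was at 197 and 177 CPM at P12 and at 6.53, 6.05 and 5.08 CPM at P80. Its log2 change was -4.99 ± 1.14, but its adjusted p was 0.08352 by the same edgeR test, so it was not called. Mki67 passed by DESeq2 (adjusted p = 0.000561), by limma-voom (0.00114) and, in edgeR, with only P12 and P80 in the fit (0.00014), with P12 replicates 2 and 3 kept apart (0.0278) and without the low-count filter. It also passed when P310 replicate 1, 2 or 4 was left out, with adjusted p of 0.0163, 0.0365 and 0.00396.

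Levels of division genes at the outer ages place the pair within a decline. Top2a was at 241 CPM at E16 on average over 3 libraries and at 4.08 CPM at P310 over 4. Mki67 was at 476 CPM at E16 and 8.61 CPM at P310. For both genes the P80 level lay near the P310 level and far under the P12 level. The summed mitosis list reached 1915 to 2096 CPM at E16 and 30.9 to 119 CPM at P310.

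Most genes that copy DNA did not pass the test. Of 25 measured members of a DNA replication list only Pole, the catalytic subunit of polymerase epsilon, was called lower (background 1.02%), with a list median of -0.95. Of the 25, 23 had negative log2 changes, and in 13 both P12 samples lay above all P80 samples, against 15.5% of all genes. Pole was at 18.1 and 11.7 CPM at P12 and at 1.71, 3.71 and 2.64 CPM at P80 (log2 change -2.49 ± 0.54, adjusted p = 0.03257, edgeR). Leaving out E16 replicate 1, 2 or 3, P12 replicate 1 or 2-3, or P80 replicate 1, 2 or 3 ended this call, with log2 changes of -2.77 to -2.15, as did a fit of only P12 and P80 (adjusted p = 0.0811, edgeR). Mcm5, a subunit of the replicative helicase named here after its values were seen, was at 15.8 and 11.7 CPM and then at 2.47, 1.61 and 0 CPM, with an adjusted p of 0.2804 by edgeR. Among D and E cyclins and their inhibitors, 1 of 11 was called lower (background 1.02%) and none higher. The called gene Ccnd1, which starts the cycle in response to growth factors, was at 125 and 75.5 CPM at P12 and at 48.8, 29.4 and 27.0 CPM at P80. Its call ended without any 1 of E16 replicates 1 to 3, P12 replicate 1, P80 replicate 2 or 3, or P310 replicate 4, with log2 changes of -1.51 to -1.11. It also ended with RLE or upper quartile factors (adjusted p = 0.0557 and 0.0609, edgeR), by limma-voom (0.0778) and with only P12 and P80 in the fit (0.0823).

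Histone genes of the clusters formed the largest group of falls. Clustered histone genes supply new chromatin during DNA synthesis, and their transcripts mostly lack a poly(A) tail, so a total RNA library measures them where a poly(A) library would not. This list was drawn up after the values were seen. Of 66 measured genes 46 were called lower (background 1.02%) and none higher, with a median log2 change of -2.98. In 62 the P12 samples lay above all P80 samples, against 15.5% of all genes. By class, 12 of 12 H3 genes, 14 of 17 H2A genes, 12 of 18 H2B genes, 4 of 5 H1 genes and 4 of 11 H4 genes were called. Their summed level was 1507 and 985 CPM at P12 and 262, 339 and 260 CPM at P80. Members are near copies, and reads that fit several were counted for each, so a value cannot be assigned to 1 gene with certainty.

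Hist1h2af, an H2A gene (ENSMUSG00000061991, chr13:23533906-23534304), was at 33.0 and 19.9 CPM at P12 and at 1.27, 0.62 and 0.63 CPM at P80. Its log2 change was -4.93 ± 0.41 (SE; adjusted p = 3.984e-05, edgeR). Hist1h3b, an H3 gene, was at 18.2 and 10.8 CPM and then at 0.32, 0.62 and 0.42 CPM (log2 change -5.05 ± 0.63, adjusted p = 0.0009191, edgeR). Both calls stood under all 24 alternative settings. The linker histone Hist1h1b was at 30.1 and 16.8 CPM at P12 and at 0.76, 0.12 and 0.07 CPM at P80. Its call, at a log2 change of -6.03, ended without E16 replicate 1, 2 or 3, P12 replicate 1, or P80 replicate 2 or 3, with values of -6.04 to -5.45. Some histone genes changed less or not: Hist1h1c, named after its values were seen, was at 180 and 152 CPM and then at 62.8, 69.4 and 45.4 CPM, and Hist2h2be had a log2 change of 0.30 that was not called. The count of called members in the list was 13 without P12 replicate 1, 25 without P80 replicate 1 and 21 without P80 replicate 3, and it was 20 with only P12 and P80 in the fit. Without P12 replicate 1, no H2B or H4 gene was called. Of 18 called genes annotated as microRNAs, 14 overlap histone genes and share their reads. They are not read here as microRNAs.

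**Figure D2:**
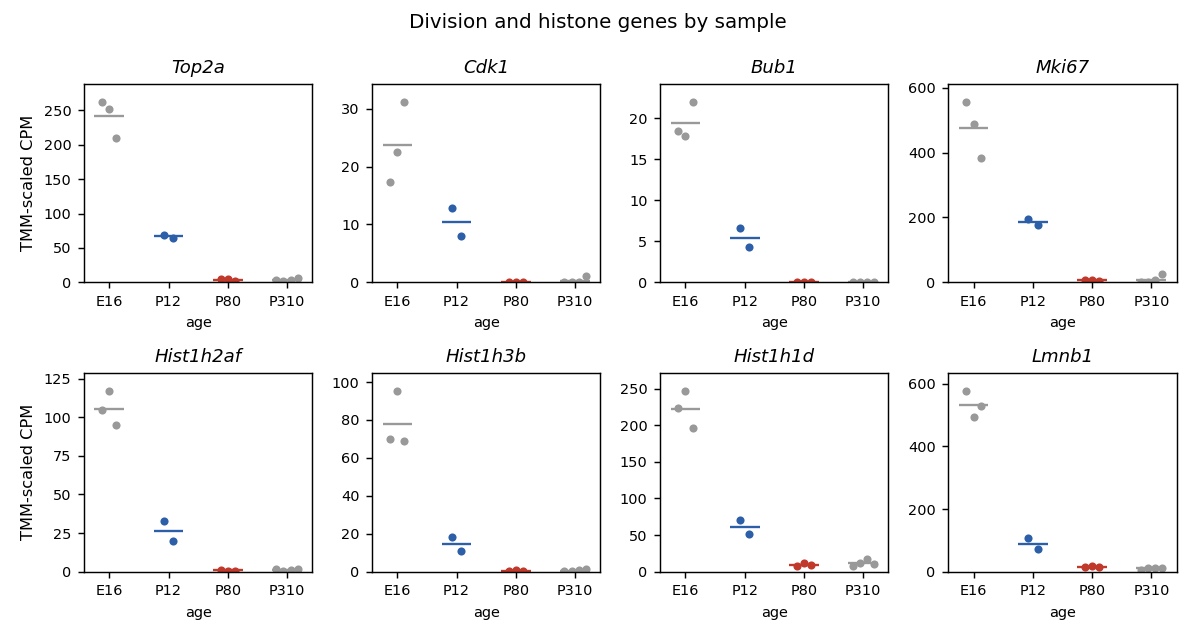
TMM-scaled CPM (vertical axes) of 8 division and histone genes in each sample of 4 ages, with a bar at the mean of each age. The 2 P12 samples (blue) lay between the E16 samples and the 3 P80 samples (red) in every panel, and Cdk1 and Bub1 were at 0 in all P80 samples.

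Nuclear proteins of immature cells fell beside the division genes. Lmnb1, the B-type lamin under the nuclear membrane, which was named after its values were seen, went from 107 and 72.3 CPM at P12 to 14.1, 18.4 and 14.1 CPM at P80 (log2 change -2.54 ± 0.29, adjusted p = 0.0005808, edgeR). In a list of fetal RNA-binding and high-mobility-group genes, 3 of 14 measured members were called lower (background 1.02%) and none higher, with a median of -0.85. Hmgb2, a chromatin protein of cycling cells, was at 116 and 79.2 CPM at P12 and at 25.9, 41.9 and 30.9 CPM at P80. Hmgn2, which binds nucleosomes, was at 67.4 and 48.4 CPM and then at 22.4, 14.3 and 27.6 CPM. Igf2bp1, a fetal messenger RNA-binding protein, was already low, at 1.74 and 1.10 CPM, and had 3 counts in all at P80. No member of this list remained called without P12 replicate 1 or without P80 replicate 1, and 1 was called without P80 replicate 2, without P80 replicate 3 or with only P12 and P80 in the fit.

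Transcription factors and cytoskeletal proteins of immature neural cells also fell. In a list of SoxC and neurodevelopmental genes, 6 of 17 were called lower (background 1.02%) and none higher, with a median log2 change of -1.30. In 12 both P12 samples lay above all P80 samples (15.5% of all genes). Sox4 (ENSMUSG00000076431), a factor of the SoxC group that keeps progenitors immature, was at 149 and 111 CPM at P12 and at 33.5, 30.6 and 37.4 CPM at P80. Its log2 change of -1.94 ± 0.23 (adjusted p = 0.0006851, edgeR) stood under all 24 alternatives. The 2 other genes of the group were called as well, Sox11 at 40.5 and 49.1 CPM and then 6.34, 7.91 and 12.9 CPM, and Sox12 at 34.3 and 39.0 CPM and then 17.4, 14.1 and 13.3 CPM. All 3 SoxC genes were thus lower in each adult sample than in either early postnatal one.

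Dcx, the microtubule protein doublecortin of migrating neuroblasts, was at 16.8 and 29.2 CPM at P12 and at 6.34, 5.44 and 2.57 CPM at P80 (log2 change -2.27 ± 0.35, adjusted p = 0.00413, edgeR). Its adjusted p was 0.0918 with only P12 and P80 in the fit. Marcksl1, a membrane and actin protein, was at 112 and 59.8 CPM and then at 18.2, 8.15 and 14.9 CPM. Its adjusted p was 0.0515 without P12 replicate 1, and 3 members of the list were called in place of 6, as with only P12 and P80 in the fit. Summed markers of mature neurons were at 70.4 and 406 CPM at P12 and 353, 388 and 118 CPM at P80, with overlapping ages. Barhl1, a factor of cerebellar granule precursors, was called lower, at 6.03 and 5.26 CPM at P12 and at 0.13, 0.12 and 0 CPM at P80. It was the only called gene of 13 granule lineage markers (background 1.02% lower). Its adjusted p was 0.0515 without P12 replicate 1 and 0.0533 without P80 replicate 3, both by edgeR, 0.053 with only P12 and P80 in the fit and 0.0608 by limma-voom. The part of these cells in the lower neural genes was not tested.

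Several basement membrane genes were called lower at P80. Basement membranes wrap brain vessels in a sheet of collagen IV, laminins and nidogens. Of 24 collagen genes, 5 were called lower (background 1.02%) and none higher, with a list median of -0.94, while 9 had positive changes. In 10 both P12 samples lay above all P80 samples (15.5% of all genes), and in 3 all P80 samples lay above the P12 samples (11.1% of all genes). Of 29 laminins, nidogens and matrix enzymes, 8 were called lower (background 1.02%) and 1 higher (background 0.406%). The median was -0.90, while 7 had positive changes. In 18 both P12 samples lay above all P80 samples (15.5% of all genes), and in 5 all P80 samples lay above the P12 samples (11.1% of all genes). The collagen count held without any single library to within 1.5 times, but leaving out P12 replicate 2-3 moved the collagen median to -0.34. With P12 replicate 1 left out the second list had 3 members called lower and none higher.

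Col4a1 and Col4a2 share a promoter region and form the main collagen IV trimer. Col4a2 (ENSMUSG00000031503) was at 1988 and 1574 CPM at P12 and at 440.0, 554.0 and 488 CPM at P80, a log2 change of -1.85 ± 0.26 (adjusted p = 0.002528, edgeR). Its partner Col4a1 was at 2234 and 1809 CPM and then at 603, 737 and 656 CPM (log2 change -1.60). Each P12 sample held more of both chains than any P80 sample. Sparc, a secreted protein that binds collagen, was at 1597 and 1167 CPM at P12 and at 391, 389 and 401 CPM at P80 (log2 change -1.81 ± 0.26). Of the linkers of the network, Nid1 went from 534 and 439 CPM to 119, 77.4 and 123 CPM, and Nid2 from 183 and 123 CPM to 31.9, 34.0 and 44.4 CPM. The laminin γ1 chain Lamc1 was at 629 and 624 CPM and then at 209, 168 and 209 CPM (adjusted p = 0.004408, edgeR). Nid1 had an adjusted p of 0.0535 and Nid2 of 0.103 without P12 replicate 1.

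Col3a1, a collagen of fibroblasts, was at 376 and 558 CPM at P12 and at 94.1, 66.5 and 59.9 CPM at P80 (log2 change -2.67 ± 0.30, adjusted p = 0.0004879, edgeR). Col18a1, whose tail is released as endostatin, was at 347 and 423 CPM and then at 130, 106 and 94.2 CPM. Elastin (Eln), in no list and named after its values were seen, was at 2202 and 3688 CPM at P12 and at 311, 298 and 168 CPM at P80 (log2 change -3.51 ± 0.41). Its E16 mean was 19.7 CPM, so elastin was highest at P12 of the 4 ages. The E16 libraries held little vessel RNA, with summed mural markers of 207 to 310 CPM and endothelial markers of 73.6 to 96.8 CPM. Matrix-cutting enzymes were among the falls, with Mmp2 at 28.3 and 51.0 CPM at P12 and 7.86, 5.93 and 6.40 CPM at P80. Timp3, an inhibitor of these enzymes, went the other way, from 225 and 211 CPM to 503, 576 and 431 CPM (log2 change 1.21 ± 0.27, adjusted p = 0.03596, edgeR). The call of Timp3 ended without any single P12 or P80 sample and without E16 replicate 3, with log2 changes of 1.10 to 1.37, and without mitochondrial, ribosomal and haemoglobin genes (adjusted p = 0.0749, edgeR). Beside these genes, the summed fibroblast markers were at 1608 and 2430 CPM at P12 and at 996, 414 and 1017 CPM at P80, with all 14 markers above 0 in all 5 samples. Col3a1 is itself among the 14, so the sum partly repeats its fall. The part of fibroblasts in the result was not tested.

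Some genes of growing vessels and of transport across the blood-brain barrier were called lower and none higher. The endothelial list had a median log2 change of 0.12, with 1 of 16 called lower (background 1.02%). Summed mural markers were at 1420 and 1158 CPM at P12 and 1412, 1630 and 1820 CPM at P80. Of 27 angiogenesis and tip cell genes 4 were called lower (background 1.02%) and none higher, with a median of -0.31, so most of the list was not called. Aplnr, the apelin receptor of sprouting vessels, was at 174 and 123 CPM at P12 and at 5.89, 6.67 and 10.2 CPM at P80, a log2 change of -4.29 ± 0.70 (adjusted p = 0.008379, edgeR). Its ligand Apln, made by tip cells, went from 127 and 54.7 CPM to 3.86, 7.04 and 3.62 CPM (log2 change -4.24, adjusted p = 0.04378, edgeR). Aplnr averaged 0.92 CPM at E16 and 1.97 CPM at P310, and Apln 0.65 and 4.35 CPM, so both were highest at P12 of the 4 ages. The E16 libraries held little vessel RNA, with summed endothelial markers of 73.6 to 96.8 CPM. Its part in the low E16 levels was not tested. Kdr, the main receptor for vascular endothelial growth factor, was at 1113 and 769 CPM at P12 and at 310, 320 and 322 CPM at P80 (log2 change -1.57 ± 0.27, adjusted p = 0.008545, edgeR). No angiogenesis gene was called without P12 replicate 1, and 2 were called without P80 replicate 2 or without P80 replicate 3. For Kdr the adjusted p was 0.166 without P12 replicate 1 and 0.0598 without P80 replicate 3, and for Aplnr 0.0627 without P12 replicate 1 and 0.0504 without P80 replicate 2.

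Of 21 barrier transport genes, 5 were called lower (background 1.02%) and none higher, with a median of -0.23. In 10 of the 21 both P12 samples lay above all P80 samples (15.5% of all genes). Of the others, 7 had positive changes, and in 5 all P80 samples lay above the P12 samples (11.1% of all genes). The list's median turned to 0.11 when P12 replicate 1 was left out, and leaving out P12 replicate 2-3, P80 replicate 2 or P80 replicate 3 gave -0.56, -0.40 or -0.08. Slc16a1 (ENSMUSG00000032902), which carries lactate and ketone bodies into the brain, was at 1447 and 873 CPM at P12 and at 112, 82.3 and 128 CPM at P80. Its log2 change of -3.43 ± 0.37 (adjusted p = 0.0003363, edgeR) was the largest in the list. Ketone bodies are a fuel of the suckling brain. Tfrc, the transferrin receptor for iron, was at 609 and 321 CPM and then at 97.6, 103 and 103 CPM (log2 change -2.20 ± 0.30, adjusted p = 0.002282, edgeR). Mfsd2a, which carries the omega-3 lipid DHA, went from 241 and 139 CPM to 63.7, 68.2 and 73.3 CPM, and Slc7a5, a large amino acid carrier, from 1085 and 566 CPM to 266, 413 and 325 CPM. Lrp8 went from 482 and 313 CPM to 118, 168 and 139 CPM. Without P12 replicate 1, P80 replicate 1 or P80 replicate 3, 2 of the 5 calls were made, and Slc16a1 and Tfrc were called under all 24 alternatives.

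**Figure D3:**
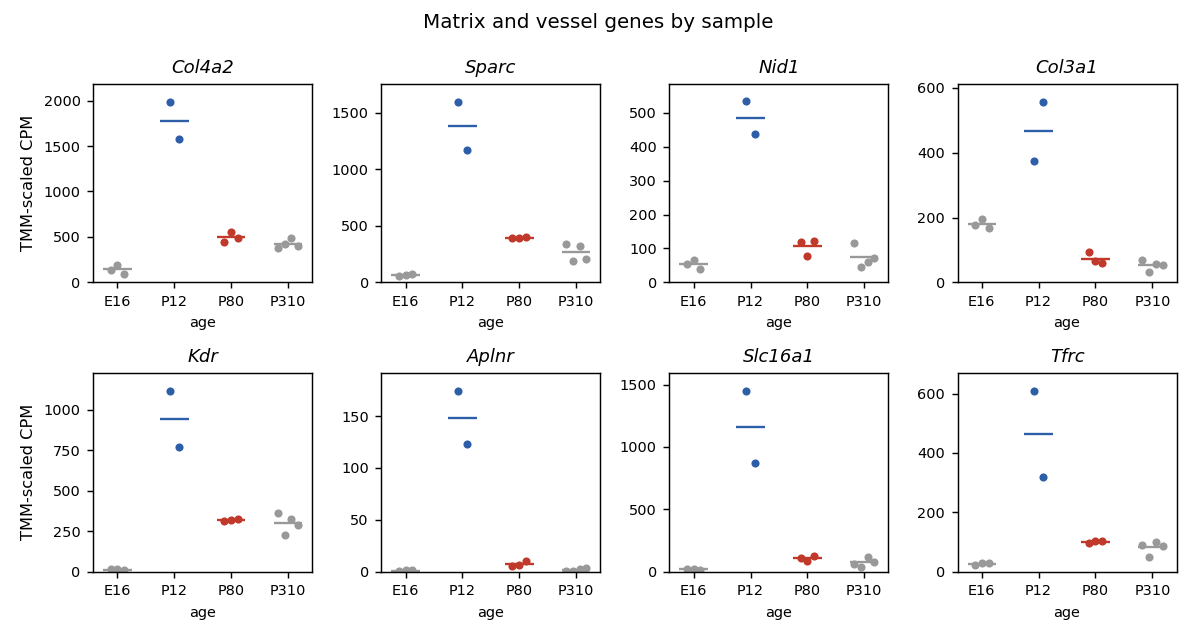
TMM-scaled CPM (vertical axes) of 8 matrix and vessel genes in each sample of 4 ages, with a bar at the mean of each age. In every panel both P12 samples (blue) lay above all samples of the other ages, and the 3 P80 samples (red) lay near the P310 samples. The E16 samples held little vessel RNA, with summed endothelial markers of 73.6 to 96.8 CPM.

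A pair of growth factor binding proteins fell. Of 25 genes of PDGF, FGF and IGF signalling, 2 were called lower (background 1.02%) and none higher, and both bind insulin-like growth factors outside the cell. Igfbp3 was at 231 and 349 CPM at P12 and at 56.1, 49.5 and 33.0 CPM at P80 (log2 change -2.65 ± 0.32, adjusted p = 0.0006921, edgeR). Igfbp4 was at 358 and 461 CPM and then at 176, 129 and 98.9 CPM (log2 change -1.60). The Igfbp4 call ended without P12 replicate 1 or 2-3 or P80 replicate 2 or 3, with log2 changes of -1.78 to -1.37, and the Igfbp3 call stood in all alternatives. The imprinted RNA H19, abundant in fetal tissues, was at 32.5 and 33.4 CPM and then at 6.46, 5.81 and 5.08 CPM. With an adjusted p of 0.05244 by edgeR it missed the threshold, and none of 18 imprinted growth genes was called. H19 passed by DESeq2 (adjusted p = 0.000755), by limma-voom (0.00186), with only P12 and P80 in the fit (0.0137) and with P12 replicates 2 and 3 kept apart (0.0139). It also passed with either other filter and without mitochondrial, ribosomal and haemoglobin genes, and without P310 replicate 1, 2 or 4, with adjusted p of 0.0418, 0.00271 and 0.00156. Of 28 Wnt pathway genes 1 was called lower (background 1.02%) and none higher. It was Apcdd1, an inhibitor of Wnt signals in brain vessels, which went from 799 and 437 CPM to 156, 197 and 158 CPM. The Apcdd1 call ended without P12 replicate 1, at a log2 change of -1.37.

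Interferon response genes were the main group that rose. Interferons switch on antiviral genes through the interferon-stimulated response element in their promoters. All 30 measured interferon-stimulated genes had positive log2 changes, with a median of 1.63, and 10 were called higher (background 0.406%). In all 30 each P80 sample lay above both P12 samples, against 11.1% of all genes. Their summed level was 447 and 401 CPM at P12 and 1279, 1168 and 1063 CPM at P80. The number called was 0 without P12 replicate 1, 3 without P12 replicate 2-3 and 5 without P80 replicate 1. It was 21 with P12 replicates 2 and 3 kept apart, 21 by DESeq2 and 19 by limma-voom.

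Promoters of 3 called interferon genes are printed because their shared element can be read in them. Capitals mark GAAANNGAAA on either strand, the core of the interferon-stimulated response element, seen here as its reverse complement. The stretches are from RefSeq on GRCm38.p6, plus strand, 300 bases each: Ifit3 at chr19:34583279-34583578, Ifit1 at chr19:34640639-34640938 and Stat2 at chr10:128270248-128270547.
Ifit3: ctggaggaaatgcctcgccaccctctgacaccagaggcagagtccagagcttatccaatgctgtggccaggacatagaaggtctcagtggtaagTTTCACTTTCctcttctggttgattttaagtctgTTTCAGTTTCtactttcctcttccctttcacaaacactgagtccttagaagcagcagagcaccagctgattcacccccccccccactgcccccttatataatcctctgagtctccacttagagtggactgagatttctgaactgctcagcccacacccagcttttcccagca
Ifit1: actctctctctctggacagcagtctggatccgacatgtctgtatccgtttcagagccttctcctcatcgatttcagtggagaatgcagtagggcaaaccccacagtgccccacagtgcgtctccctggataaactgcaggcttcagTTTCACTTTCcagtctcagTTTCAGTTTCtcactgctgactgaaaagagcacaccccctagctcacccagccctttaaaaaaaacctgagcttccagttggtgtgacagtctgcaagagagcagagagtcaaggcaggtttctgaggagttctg
Stat2: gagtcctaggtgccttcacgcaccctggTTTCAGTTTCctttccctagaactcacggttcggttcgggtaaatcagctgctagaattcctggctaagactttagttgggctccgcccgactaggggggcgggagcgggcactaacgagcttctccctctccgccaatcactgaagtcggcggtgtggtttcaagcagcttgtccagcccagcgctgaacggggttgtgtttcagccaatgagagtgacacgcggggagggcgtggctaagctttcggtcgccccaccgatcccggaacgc
Of 22 list members with a matched promoter, 15 (68.2%) held the element, against 3.44% of all 32851 promoters. Among the 6 called members that matched, 4 held it. Of 66 matched promoters of all genes called higher at P80, 19.7% held it, and of 109 matched promoters of genes called lower, 3.67%.

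Ifit3 (ENSMUSG00000074896, chr19:34583531-34588731), which blocks the translation of viral RNA with its relatives, was at 2.18 and 3.48 CPM at P12 and at 55.8, 21.99 and 38.0 CPM at P80. The lowest adult sample was thus above both early ones, and the log2 change was 3.76 ± 0.59 (SE; adjusted p = 0.004358, edgeR). Its neighbour Ifit1 was at 3.48 and 6.60 CPM and then at 53.2, 28.4 and 28.9 CPM (log2 change 2.86). Irf7, the factor that amplifies type I interferon, was at 7.15 and 5.39 CPM at P12 and at 40.7, 35.8 and 33.1 CPM at P80 (log2 change 2.55 ± 0.41, adjusted p = 0.00549, edgeR). Oas2, which makes the activator of the antiviral ribonuclease, was at 1.68 and 0.93 CPM and then at 13.1, 14.95 and 11.6 CPM. Stat2, a subunit of the interferon-activated factor, was at 20.3 and 30.3 CPM and then at 76.8, 71.8 and 63.4 CPM (log2 change 1.48). Without P12 replicate 1 the adjusted p was 0.102 for Ifit3, 0.0645 for Irf7 and 0.0515 for Oas2, and without P12 replicate 2-3 it was 0.0716 for Irf7 and 0.0793 for Oas2.

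Interferon-inducible GTPases, proteins that attack the vacuoles of intracellular microbes, were counted in a list drawn up after the values were seen. Of 22 measured members 9 were called higher (background 0.406%) and none lower, with a median of 1.59. Tgtp1 was at 2.92 and 2.40 CPM at P12 and at 29.3, 29.9 and 31.2 CPM at P80 (log2 change 3.50 ± 0.42, adjusted p = 0.0006851, edgeR). Its near copy Tgtp2 was at 3.67 and 2.16 CPM and then at 42.8, 26.3 and 33.9 CPM. Iigp1 was at 2.30 and 3.48 CPM and then at 27.8, 22.9 and 27.3 CPM (log2 change 3.16 ± 0.45, adjusted p = 0.002528, edgeR). The very large GTPases Gvin1 and Gm4070 were at 26.2 to 33.4 CPM at P12 and 216 to 230 CPM at P80, with log2 changes of 2.89 and 3.01 (adjusted p = 3.984e-05 each, edgeR). Near copies in this family share reads, as in the histones, so values of single members are uncertain. Without P12 replicate 1, 4 of the 9 were called, and without P12 replicate 2-3, 5 were, while Tgtp1 and Tgtp2 were called under all 24 alternatives. Iigp1 had an adjusted p of 0.0619 without P12 replicate 1.

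Antigen presentation rose with the interferon genes. Of 20 MHC class I and peptide loading genes 6 were called higher (background 0.406%) and none lower, with a median of 1.12. In 16 all P80 samples lay above the P12 samples (11.1% of all genes). H2-K1 (ENSMUSG00000061232), a classical class I heavy chain, was at 52.7 and 52.6 CPM at P12 and at 233, 218 and 187 CPM at P80 (log2 change 2.01 ± 0.25, adjusted p = 0.000881, edgeR). H2-D1, the second classical chain, was at 112 and 115 CPM and then at 330, 295 and 273 CPM, and the shared light chain B2m at 80.5 and 63.3 CPM and then at 213, 233 and 198 CPM. The chains of the class I complex were thus each higher in every adult sample. Nlrc5, the transactivator of class I genes, was at 2.36 and 2.82 CPM at P12 and at 26.4, 30.5 and 22.8 CPM at P80 (log2 change 3.35 ± 0.52, adjusted p = 0.004154, edgeR). Class I genes are close paralogs, and reads shared among them were counted for each. Without P12 replicate 1 the list had 1 called member and without P12 replicate 2-3 it had 2, while H2-K1 was called under all alternatives. Nlrc5 had an adjusted p of 0.0849 without P12 replicate 1. H2-D1 had 0.119 and 0.0592 without P12 replicate 1 and 2-3.

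Class II genes, made by antigen-presenting cells, were measured at lower levels, and 2 of 10 were called higher (background 0.406%) with none lower. H2-Ab1 was at 3.48 and 2.95 CPM at P12 and at 11.02, 19.6 and 20.9 CPM at P80 (log2 change 2.42 ± 0.47, adjusted p = 0.01658, edgeR). H2-Eb1 was at 0.19 and 1.25 CPM and then at 5.96, 9.02 and 21.1 CPM (log2 change 3.95 ± 0.85). Neither was called without P12 replicate 1 or without P80 replicate 3, 1 was called without P12 replicate 2-3 or without E16 replicate 1, and 4 members were called without P310 replicate 2. With only P12 and P80 in the fit none was called, by limma-voom 1, and by DESeq2 4. Summed microglia markers were at 1348 and 1413 CPM at P12 and at 512, 1407 and 1782 CPM at P80, overlapping between the ages, with all 18 markers above 0 in all 5 samples. Markers of border macrophages and leukocytes summed to 108 and 100 CPM at P12 and to 95.9, 168 and 165 CPM at P80. P80 replicate 1, the library with the least microglial signal, was the lowest adult sample for H2-Ab1 and H2-Eb1. It lay above both P12 samples for both genes, while its summed microglia markers lay under those of both P12 samples. The part of these cells in the result was not tested. None of 30 inflammation and chemokine genes was called. Il1b, an inflammatory cytokine, was at 0.37 and 0.11 CPM and then at 2.53, 3.21 and 16.8 CPM, with an adjusted p of 0.0546 by edgeR that passed without P310 replicate 2 (0.0303), with P12 replicates 2 and 3 kept apart (0.00876), without the low-count filter and by DESeq2 (3.13e-05).

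Genes with the largest rises outside these lists included 2 enzymes. Xdh (ENSMUSG00000024066, chr17:73883908-73950182), xanthine dehydrogenase, which ends purine breakdown, was at 4.35 and 3.58 CPM at P12 and at 93.8, 141 and 97.2 CPM at P80. It had the largest log2 change among the 8 rises that were ranked, 4.80 ± 0.49 (adjusted p = 0.0002025, edgeR), and was called under all 24 alternatives. Fmo2, a flavin-containing monooxygenase, was at 0.06 and 1.70 CPM and then at 24.5, 26.3 and 17.1 CPM, a call that ended without P12 replicate 1, P80 replicate 1 or P80 replicate 2 at log2 changes of 3.72, 4.49 and 4.43, or with only P12 and P80 in the fit (adjusted p = 0.115, edgeR). At P310 the means were 111 ± 14.4 CPM for Xdh and 22.8 ± 6.78 CPM for Fmo2 (SD, n = 4), near the P80 levels. Among the largest falls, Ackr2, a decoy receptor that clears chemokines, was at 22.4 and 10.6 CPM at P12 and had 2 counts in all at P80. Its call ended without any single P12 or P80 sample, at adjusted p of 0.0872 to 0.363 by edgeR, and by DESeq2 (0.276). The Y-linked Ddx3y, at 17.2 and 49.4 CPM at P12, was at least 424-fold lower at P80 and Eif2s3y, at 5.16 and 19.9 CPM, at least 160-fold. Both follow the pattern of sex-linked transcripts given above, and their falls are not read here as changes with age.

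**Figure D4:**
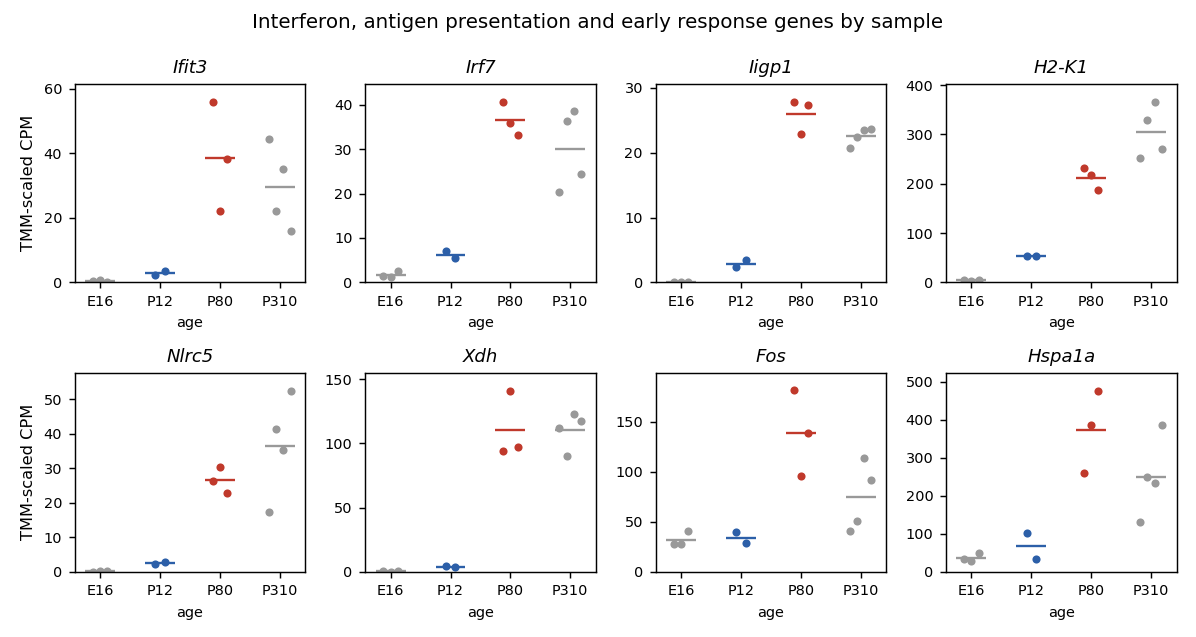
TMM-scaled CPM (vertical axes) of 8 genes in each sample of 4 ages, with a bar at the mean of each age. The genes belong to the interferon response, antigen presentation, the early response and heat shock, and Xdh is among the 8. The 3 P80 samples (red) lay above both P12 samples (blue) in every panel.

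Early response genes were higher at P80. Immediate early genes switch on within minutes of a stimulus, cell dissociation included. All 22 members had positive log2 changes with a median of 1.08, and 6 were called higher (background 0.406%). Fos, a subunit of the AP-1 factor, was at 39.4 and 28.9 CPM at P12 and at 182, 95.9 and 139 CPM at P80 (log2 change 2.03 ± 0.43, adjusted p = 0.03167, edgeR). Fosb was at 15.9 and 17.9 CPM and then at 102, 66.6 and 111 CPM, and Junb at 41.1 and 30.0 CPM and then at 148, 73.5 and 139 CPM. The lowest adult sample of each AP-1 gene, P80 replicate 2, still lay above both P12 samples. No member was called without P12 replicate 1, P12 replicate 2-3, P80 replicate 1 or P80 replicate 3, and 3 were called without E16 replicate 2, P310 replicate 3 or P80 replicate 2. Of 20 heat shock genes only Hspa1a was called (background 0.406% higher), at 101 and 33.7 CPM at P12 and 259, 386 and 476 CPM at P80. Its call ended without E16 replicates 1 to 3, P12 replicate 2-3, P310 replicate 3 or P80 replicate 2 or 3, each left out singly, at log2 changes of 1.88 to 2.48, or with only P12 and P80 in the fit (adjusted p = 0.121, edgeR). Nr1d1, a repressor of the circadian clock, was the only called gene of 24 clock and glucocorticoid genes (background 0.406% higher). It was at 41.8 and 32.5 CPM and then 117, 78.3 and 121 CPM. The Nr1d1 call ended without any 1 of P12 replicate 1, P12 replicate 2-3, P80 replicate 1 or P80 replicate 3, at log2 changes of 1.33 to 1.69. The myelin bead step was used at P80 only, and age and handling cannot be told apart here.

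Precursor genes mostly had negative changes, and 1 passed the test. Of 20 OPC identity genes 1 was called lower (background 1.02%) and none higher. Of the 20, 18 had negative log2 changes, and the median was -1.10. In 11 the P12 samples lay above all P80 samples (15.5% of all genes). The summed level was 662 and 838 CPM at P12 and 330, 366 and 367 CPM at P80. Without P12 replicate 2-3 the median was -0.44. Ptprz1, a receptor phosphatase of precursors and astrocytes, was at 245 and 314 CPM at P12 and at 67.7, 98.4 and 76.9 CPM at P80 (log2 change -1.79 ± 0.32, adjusted p = 0.01022, edgeR). Its call ended without P12 replicate 2-3, P80 replicate 1 or P80 replicate 3 at log2 changes of -1.60, -1.67 and -1.69. Sox10, a factor of the whole oligodendrocyte lineage, was at 45.7 and 16.3 CPM and then at 4.56, 6.92 and 5.42 CPM, and Olig2 at 12.6 and 15.8 CPM and then at 5.20, 7.04 and 1.18 CPM. Both were lower in each adult sample, with adjusted p of 0.6364 and 0.7629 by edgeR. For Pdgfra the adjusted p was 0.7721 and the log2 change -0.92 ± 0.64. Vcan, a matrix proteoglycan of precursors, had an adjusted p of 0.1234, and passed with P12 replicates 2 and 3 kept apart (0.0278), by limma-voom (0.0403) and without P80 replicate 2 (0.0428).

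Myelin genes differed widely between the P12 samples. None of 26 myelin and mature oligodendrocyte genes and none of 15 genes of committed precursors was called. In 12 of the 26 and in 9 of the 15 both P12 samples lay above all P80 samples, against 15.5% of all genes. Genes of committed precursors summed to 1007 and 703 CPM at P12 and to 587, 564 and 522 CPM at P80. Mbp, a main protein of compact myelin, was at 3398 CPM in P12 replicate 1 and 115 CPM in P12 replicate 2-3, and at 74.2, 130 and 41.9 CPM at P80. Mog, on the outer myelin surface, was at 78.4 and 0.68 CPM and then at 0.51, 0 and 0 CPM. The summed list was at 9130 and 719 CPM at P12 and at 744, 886 and 640 CPM at P80. P12 replicate 1 had the highest sum, and the list's median log2 change of -2.99 was -0.43 without it.

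The test called 1 astrocyte marker, 1 cholesterol synthesis gene and 1 splicing factor, and no listed gene of the respiratory chain or of cytosolic ribosomes. Aqp4, the water channel of astrocyte endfeet, was at 233 and 229 CPM at P12 and at 101, 73.6 and 54.3 CPM at P80 (log2 change -1.60 ± 0.31, adjusted p = 0.01677, edgeR). It was the only called gene of 16 astrocyte markers (background 1.02% lower). Its call ended without P12 replicate 1, P12 replicate 2-3, P80 replicate 2 or P80 replicate 3, with log2 changes of -1.61 to -1.34. The summed astrocyte markers were at 3539 and 4191 CPM at P12 and at 1725, 2603 and 1863 CPM at P80, with no overlap and all 16 above 0 in all 5 samples. All 13 protein genes of the mitochondrial genome were higher in each P80 sample, with a median log2 change of 1.79 and none called. Of 28 nuclear genes of the respiratory chain none was called either, and their median was -0.37, which leaving out P12 replicate 1 or 2-3 moved to 0.02 or -0.65. Of 30 cytosolic ribosomal protein genes 29 had negative log2 changes, with a median of -0.46 and none called, and leaving out P12 replicate 1 or 2-3 moved it to -0.14 or -0.78. Hmgcs1, an early enzyme of cholesterol synthesis, was the only called gene of 24 in that pathway (background 1.02% lower). It was at 183 and 62.6 CPM at P12 and 43.6, 27.8 and 46.9 CPM at P80. Its log2 change was -0.67 without P12 replicate 1, in place of -1.64, and its call also ended without any single E16 or P80 sample or P310 replicate 1, 3 or 4. The Hmgcs1 call ended as well with P12 replicates 2 and 3 kept apart (adjusted p = 0.0775, edgeR), with only P12 and P80 in the fit (0.195) and by limma-voom (0.0804). Of 28 splicing factors 1 was called lower (background 1.02%) and none higher. It was Hnrnpab, at 222 and 156 CPM and then at 111, 77.0 and 95.7 CPM. The Hnrnpab call ended without P12 replicate 1, at a log2 change of -0.73. That call also ended without any single E16 or P80 sample or P310 replicate 4, and with RLE or upper quartile factors (adjusted p = 0.0542 and 0.0517, edgeR).

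Several lists of signalling and excitability, and the list of chromatin genes, had no called member: 30 voltage-gated channels, 34 transmitter receptors, 18 Notch genes, 20 BMP genes, 28 axon guidance receptors and 20 chromatin genes. Their median log2 changes lay between -0.38 and 0.10. Single libraries turned some of them: the channel median of -0.31 rose to 0.47 without P12 replicate 2-3, and the receptor median of -0.22 was 1.03 without P12 replicate 2-3, -0.81 without P12 replicate 1 and 0.09 without P80 replicate 3. The channel median was -0.64, -0.47 and -0.14 with P12 replicate 1, P80 replicate 1 or P80 replicate 3 left out, the receptor median -0.69 without P80 replicate 1, and the axon guidance median of -0.38 was -0.04 without P12 replicate 2-3. Dll3, a Notch ligand of neural progenitors, was at 1.37 and 1.51 CPM at P12 and had no count at P80, with an adjusted p of 0.06025 by edgeR. Dll3 passed without P310 replicate 1, 2 or 4, by DESeq2 (0.000617), by limma-voom (0.0181), with P12 replicates 2 and 3 kept apart (0.0251), without the low-count filter and without mitochondrial, ribosomal and haemoglobin genes (0.0462).

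Markers of blood and of the ventricle lining varied between libraries, with no called member among 10 erythroid, 10 choroid plexus and 12 ependymal genes. Erythroid genes summed to 3899 and 3220 CPM at P12 and to 257, 880 and 2347 CPM at P80, lower in each adult sample. Choroid plexus genes summed to 6597 and 1100 CPM at P12 and to 1317, 3463 and 7721 CPM at P80, and ependymal genes to 414 and 74.8 CPM and to 322, 211 and 244 CPM, both overlapping between the ages. None of 13 mural markers was called, and of 4 Y-linked genes the 2 named above were.

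**Figure D5:**
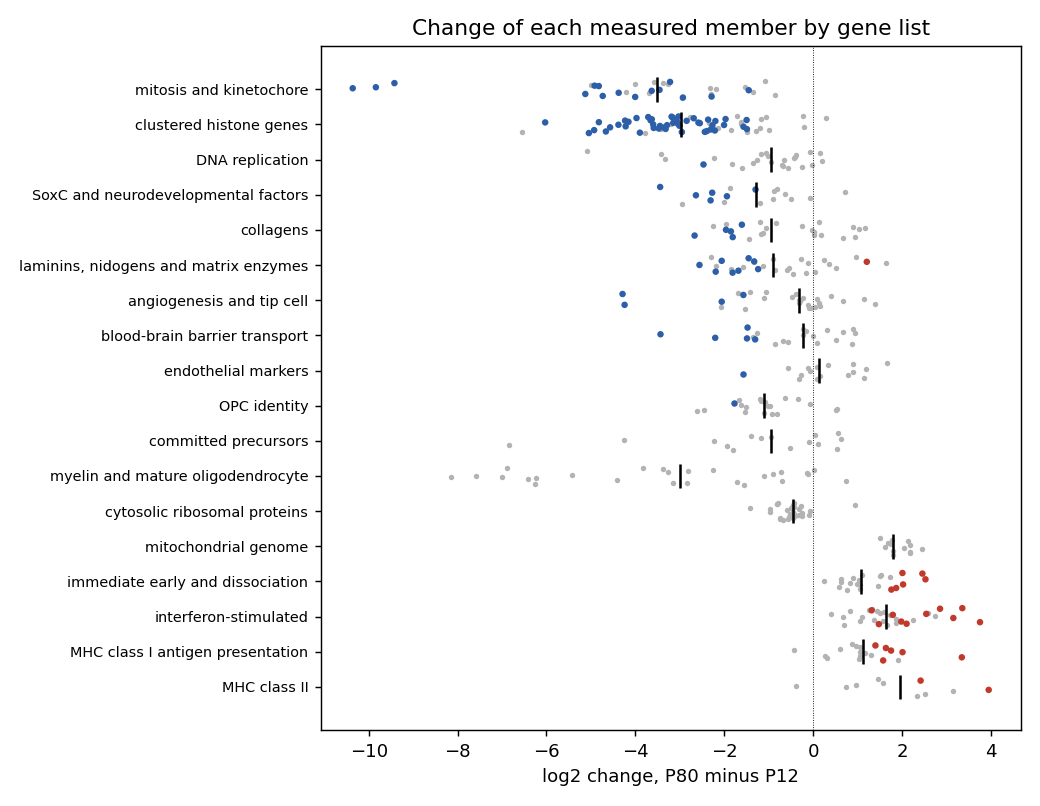
Log2 change from P12 to P80 (horizontal axis) of each measured member of 18 gene lists (rows), with called members in blue (lower) or red (higher), others in grey, and a black bar at each list's median. Mitosis and histone genes lie to the left with medians of -3.52 and -2.98, interferon genes all lie to the right with a median of 1.63, and the endothelial markers centre on 0.12.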

How the data were processed

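Total RNA of PDGFRα-sorted mouse brain cells was sequenced from a stranded low-input library. Per the file headers, the authors obtained the deposited raw counts with featureCounts 1.5.0-p1 on Ensembl release 92 exons. Reads on several genes or mapping to several places were counted for each, an overlap of at least 10 bases was required and strand was not used, so near copies, overlapping genes and antisense partners share reads. Trim Galore and TopHat2 2.1.1, with builds GRCm38 and mm10, are named in the submitters' processing notes. Of 37785 genes, 37715 were named from GENCODE M21, and 70 kept their identifier.

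The titles' ages gave the groups. P12 replicates 2 and 3 were summed (chi-square over genes with at least 20 counts in the pair). Genes were kept by filterByExpr and scaled by TMM, and edgeR 4.0.16 (R 4.3.3) fitted 1 mean for each age over the 12 samples (robust quasi-likelihood F test, Benjamini-Hochberg over 21170 genes, threshold 0.05). The common biological coefficient of variation was 0.513. With 2 samples against 3, an exact permutation test of 1 value cannot go below p = 0.2, so none was used for list sums, and lists are described by counts and medians. Libraries held 8669521 to 25810455 counts. No count in a group allows up to 3, or 0.0474 CPM at P12 and 0.0784 CPM at P80, floors that cover counting error alone because PCR copies are no independent molecules. Bounds of fold use the other group's mean.

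The members, the 44 gene lists (11 of them markers of other cell types), the tests and the naming rule were chosen with earlier results of these data known. The histone, GTPase and Y-linked lists were added after values were seen. The rule names, of the called coding genes, the 8 that rose most and the 8 that fell most, with at least 10 CPM in the higher group, up to 3 called members per list with the smallest adjusted p (or up to 2 by raw p as values), members against their list, and Pdgfra, Cspg4, Olig2, Sox10, Mbp and Mki67. Other called list members printed were picked after their values were seen, as were Cldn5 and Pecam1. Promoters and start sites came from RefSeq tables, matched by symbol or Ensembl identifier. On simulated data for P80 against P12 with 20523 genes, 100 of them changed 4-fold and 100 changed 2-fold, 18.4% of the 4-fold and 0% of the 2-fold changes were called, with 4 false calls. These false calls are to be set against the few calls made and not against all genes. The simulation drew each gene around 1 mean over the 12 samples and placed the changes at P80 only, unlike the data. Alternatives also used DESeq2 1.42.0 and limma 3.58.1. Python 3.11.15, numpy 2.4.6, pandas 2.3.3 and matplotlib 3.10.9 made summaries and figures. Some genes are not reported here.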

Additional observations from a re-analysis of the deposited data

How the results depend on the processing

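The numbers of genes called higher and lower at P80 (86 and 215) were 270 and 367 by DESeq2, 163 and 327 by limma-voom with quality weights, and 259 and 618 without the low-count filter. Those called lower were 138 with only P12 and P80 in the fit. With P12 replicates 2 and 3 kept apart, 210 were called higher. Leaving out each replicate in turn gave 15 to 146 genes higher and 56 to 300 lower. Size factors by RLE gave 90 and 205 and upper quartile factors 89 and 203, and the median of all genes moved by at most 0.05 on the log2 scale. A stricter filter (88 and 217), counts without mitochondrial, ribosomal and haemoglobin genes (73 and 241) and a log2 change of at least 1 (84 and 213) stayed within 1.5 times. Of gene lists, the collagens (5 called lower) had 10 called without the low-count filter, and the laminin and matrix list (8) had 14 with P12 replicates 2 and 3 kept apart and 15 by limma-voom. DESeq2 called 10 MHC class I genes in place of 6 and 15 GTPases in place of 9, and 10 early response genes in place of 6 were called with the P12 replicates kept apart. No named gene that was called changed direction under any of the 24 alternatives. Replicate numbers share only a number across ages: same-numbered P12 and P80 libraries, kept apart, had correlations of deviations of -0.09, 0.10 and -0.18. A replicate block gave 59 higher and 184 lower, and the block with P12 replicates 2 and 3 kept apart gave 170 and 273. The block ended the calls of Ccnd1, Hmgcs1, Hmgb2, Nr1d1, Timp3, Hspa1a and H2-Eb1 (adjusted p of 0.0515 to 0.13) and called Mki67 and H19 (0.0147 and 0.00778). Where calls were lost the cause was not tested. Leaving out a replicate also leaves fewer samples in the fit, and the part of this was not tested either. Depth limits genes with few counts at P80, whose folds are bounds. In the simulation 2-fold changes were not called, but its setting differs from the data, in which some changes near 2-fold were called (Hnrnpab, log2 change -0.9994). With 2 samples at P12, a gene that was not called may still differ.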

Other observations

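Further genes called higher at P80, in no list and picked after their values were seen, make membrane and metal-handling proteins. Cp, the copper ferroxidase ceruloplasmin, was at 64.2 and 75.6 CPM at P12 and at 270, 280 and 207 CPM at P80 (log2 change 1.85 ± 0.30, adjusted p = 0.005221, edgeR). Alpl, tissue-nonspecific alkaline phosphatase, was at 25.2 and 33.1 CPM and then at 209, 113 and 144 CPM (log2 change 2.41 ± 0.39). Clec2d, a lectin recognised by an inhibitory receptor of natural killer cells, was at 37.5 and 35.1 CPM and then at 144, 190 and 142 CPM (log2 change 2.13 ± 0.27, adjusted p = 0.0009712, edgeR). Each of the 3 genes was higher in every P80 sample than in either P12 sample.

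Among further falls, Itga4, an integrin chain that binds fibronectin and VCAM1, was at 140 and 75.9 CPM at P12 and at 23.3, 22.6 and 27.2 CPM at P80 (log2 change -2.15 ± 0.39, adjusted p = 0.01066, edgeR). Slc1a4, a carrier of serine and other neutral amino acids, was at 113 and 71.8 CPM and then at 15.8, 22.9 and 6.05 CPM (log2 change -2.64 ± 0.44, adjusted p = 0.006249, edgeR). Their E16 means of 15.1 CPM and 26.5 CPM were also under the P12 levels.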
